A study of Homo sapiens with 6 samples.

Results

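Immediate early genes were followed across 6 RNA-seq libraries of MB157, a cell line established from a human triple-negative breast cancer. The 10 genes, out of 57209 counted, were taken by name: the AP-1 subunit genes JUN, JUNB, JUND, FOS, FOSL1 and FOSL2, the related factor ATF3, the zinc finger factor EGR1, the stress response gene IER3, and IER3-AS1, which lies opposite IER3. Where another gene had an exon on the other strand of a member, its row was read as well. This added 1 gene, HOOK2, opposite JUNB. All cells were MB157-Cas9, grown with puromycin, and carried a control sgRNA or one targeting SOX9, named a SOX9 KO sgRNA in the titles. Cells were collected 4 days later by sorting the 50% with the highest sgRNA expression. The design text speaks of stable SOX9 expression and the titles of Cas9, so both are given. Each group had 3 libraries, called technical replicates in the labels, so p-values measure the spread between libraries and not between independent experiments.

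AP-1 is a dimer of basic leucine zipper (bZIP) proteins. JUN proteins pair with each other or with FOS proteins, and the pairs bind short palindromic sites in promoters and enhancers. Genes of this kind are transcribed within minutes of growth factor or stress signals, through kinases of the MAPK cascades and serum response factor, and their mRNAs decay fast. In basal-like breast cancer cells, FOSL1 is known for its link to mesenchymal traits.

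Promoter sequence was read from RefSeq windows (GRCh38.p14), present for 8 of the 10 genes, as the 250 bases before each start. Coordinates of counts are on GRCh37, so the builds are kept apart. Both strands were searched for the AP-1 site TGANTCA, the cyclic AMP response element TGACGTCA, the CArG box bound by serum response factor, and the SOX core AACAAT. No match of one motif overlapped a match of another in the windows shown. IER3-AS1 is shown because it had the smallest adjusted p among the members, EGR1 and JUND because they held the 2 kinds of match, and HOOK2 because the stretch before its outermost RefSeq start lies inside JUNB. Capitals mark matches.
IER3-AS1, chr6:30742713-30742962, plus strand: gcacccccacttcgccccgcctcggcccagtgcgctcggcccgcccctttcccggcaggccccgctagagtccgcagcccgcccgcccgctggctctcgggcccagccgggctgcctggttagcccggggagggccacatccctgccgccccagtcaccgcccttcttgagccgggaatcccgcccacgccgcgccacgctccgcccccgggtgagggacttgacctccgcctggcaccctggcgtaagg
EGR1, chr5:138465229-138465478, plus strand: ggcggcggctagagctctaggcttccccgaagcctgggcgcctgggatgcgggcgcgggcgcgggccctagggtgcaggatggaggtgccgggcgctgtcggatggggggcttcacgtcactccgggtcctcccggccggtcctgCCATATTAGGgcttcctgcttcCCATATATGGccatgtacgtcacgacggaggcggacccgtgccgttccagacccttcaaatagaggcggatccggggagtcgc
JUND, chr19:18281623-18281872, minus strand: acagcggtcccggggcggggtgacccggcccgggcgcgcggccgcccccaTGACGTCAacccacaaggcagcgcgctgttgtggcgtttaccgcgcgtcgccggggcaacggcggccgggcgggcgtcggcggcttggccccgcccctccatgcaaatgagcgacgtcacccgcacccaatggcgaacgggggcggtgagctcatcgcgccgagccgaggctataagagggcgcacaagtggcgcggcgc
HOOK2, chr19:12792351-12792600, minus strand: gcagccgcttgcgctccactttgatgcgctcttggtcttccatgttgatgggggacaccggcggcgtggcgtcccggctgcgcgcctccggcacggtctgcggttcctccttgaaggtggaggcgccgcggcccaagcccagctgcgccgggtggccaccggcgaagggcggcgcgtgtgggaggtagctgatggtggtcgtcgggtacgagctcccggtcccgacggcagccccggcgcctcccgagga
The EGR1 window held CArG boxes at bases -105 to -96 and -83 to -74 from the start, and 1.16% of all 35097 windows held one. The JUND window held TGACGTCA at bases -200 to -193 from the start, against 1.65% of all windows. TGANTCA was in 0 of the 9 member windows and 6.57% of all, and AACAAT in 0 of 9 and 8.98% of all, which says only that these letters are absent from these windows. The HOOK2 stretch, read on the other strand, matched bases 856 to 1105 of the 1820-base JUNB transcript of GENCODE release 29. Those bases fall within its longest open reading frame, bases 277 to 1320.

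Library totals ran from 776125 to 1018854 counts. The targeted gene, SOX9, had 37 to 60 counts per library and a log2 fold change of -0.22 (edgeR adjusted p = 0.70, SE 0.26), so its counts do not check the labels. Of 10 epithelial markers, 8 had counts in every library, and KRT8 had 371 to 558. Among 8 of them tested by edgeR, 2 were lower with the SOX9 sgRNA and 0 higher (1 at an unadjusted p below 0.05, and 0 by DESeq2). Over all genes tested, 6.02% were lower and 2.99% higher. KRT19 went from 318 ± 6.22 to 190.0 ± 32.8 CPM and KRT7 from 60.7 ± 10.2 to 30.9 ± 1.36 CPM (SD, n = 3 each), with edgeR adjusted p of 1.83e-05 and 0.018. KRT14, which was not tested, had 14, 9 and 16 control counts against 1, 0 and 6. KRT17, also not tested, went the other way, with 0, 3 and 0 control counts against 7, 4 and 10. KRT5 went from 98.5 ± 15.4 to 131 ± 6.42 CPM (SD, n = 3 each, edgeR adjusted p = 0.17). Of the 8 tested, 5 had negative log2 fold changes and 3 positive ones. The part of these mixed shifts in keratin levels in the results on the members was not tested. The receptor genes ESR1 and PGR had 0 to 7 and 3 to 7 counts, and ERBB2 141 to 213. Of the leukocyte, fibroblast and endothelial markers, CD3E, LYZ, COL3A1, LUM, CDH5 and VWF were at 0 in every library, with summed levels of at most 28.6, 10.8 and 1.44 CPM for the 3 lists. Counts were kept apart by strand, and many abundant mRNAs had few. GAPDH had 66 to 126 counts per library and the row opposite it 7249 to 11002. Protein-coding genes that share exon sequence with an opposite gene had a median of 60 counts over the 6 libraries, and those that share none had 10. Whether a count holds transcripts of its own gene or of the gene opposite was not tested. For JUN, JUND, FOS, FOSL1, FOSL2, EGR1 and ATF3 no exon is annotated opposite, so the tables hold no count for their other strand.

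With the SOX9 sgRNA, counts fell at both genes of the IER3 locus and rose at HOOK2, opposite JUNB. No change was detected in the rows of the AP-1 subunit genes, all at low counts on the strand counted. For JUN, JUND, FOS, FOSL1 and FOSL2 the other strand has no count, so nothing is said of it. Of the 10 members, 5 passed the filter on low counts and 2 of these were lower, IER3 and IER3-AS1. None was higher by edgeR's quasi-likelihood test (0 also at an unadjusted p below 0.05, and 0 of 4 tested by DESeq2). Among all 7959 genes tested 9.01% were called, 6.02% lower and 2.99% higher. The median log2 fold change (SOX9 sgRNA over control) of the 5 members was 0.06, and that of all genes 0.01. In bulk RNA, fewer cells with a transcript and less of it per cell cannot be told apart.

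**Figure D1:**
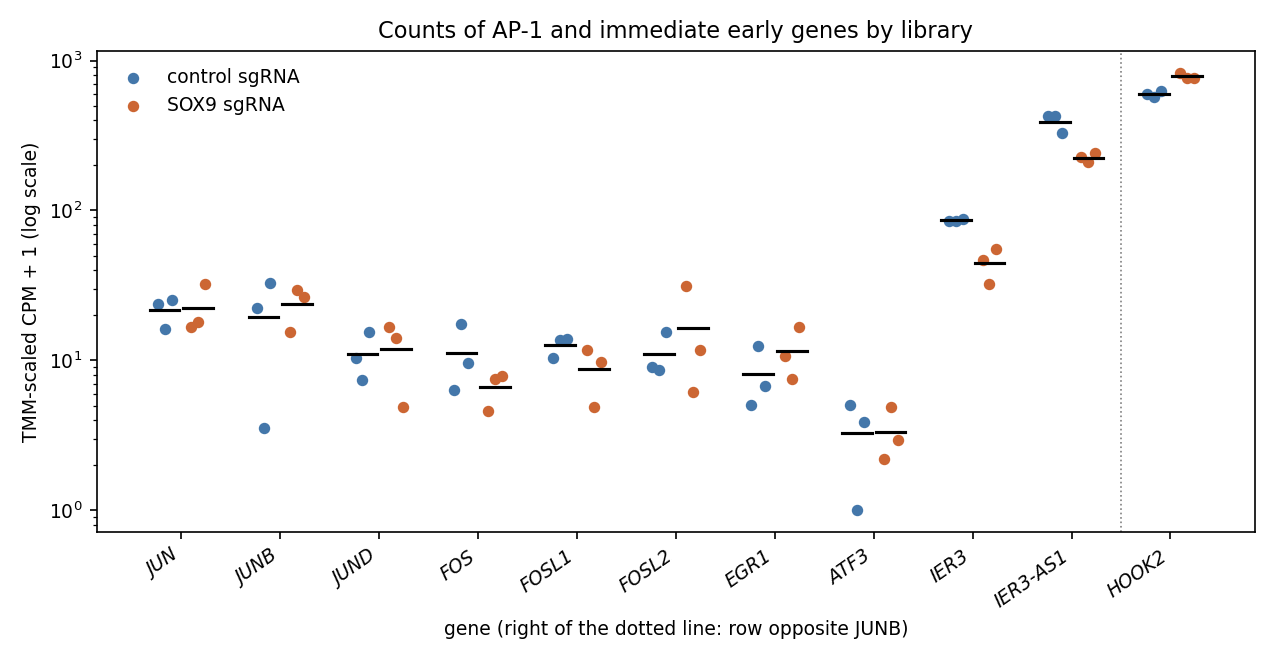
Each point is 1 library and each bar the mean of 3, on a log axis of CPM (counts scaled to a common library size with TMM factors) plus 1. Control and SOX9 sgRNA libraries separate for IER3, IER3-AS1 and HOOK2 and overlap for the other 8 genes, the AP-1 subunits, EGR1 and ATF3. Among all genes tested, the groups separate for 24.5%.

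IER3 encodes a small protein induced by growth factors, NF-kB and p53 that acts on cell survival. The gene (ENSG00000137331, chr6:30710976-30712331, minus strand, GRCh37) has 1 exon of 1356 bp. Its counts in libraries 1 to 3 were 63, 66 and 60 with the control sgRNA and 38, 24 and 56 with the SOX9 sgRNA. Scaled to CPM, these were 84.1, 83.8 and 86.3 against 45.8, 31.2 and 54.5. The control libraries lay close together, every SOX9 sgRNA library was below them, and SOX9 sgRNA library 2 was the lowest. The mean went from 84.7 ± 1.34 to 43.8 ± 11.8 CPM (SD, n = 3 each), or -0.93 on the log2 scale (SE 0.25, edgeR adjusted p = 0.007). Without SOX9 sgRNA library 2 the value was -0.75 and the call was lost (edgeR adjusted p = 0.078).

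IER3-AS1 (ENSG00000272273, chr6:30710706-30711369, plus strand) is annotated as a noncoding transcript that runs into the end of IER3 from the other side. Its second exon block, 30711011 to 30711369, lies wholly within the IER3 exon, so that 359 of its 527 exon bp (68.1%) are shared with IER3 on the other strand. Counts in libraries 1 to 3 were 317, 333 and 226 with the control sgRNA and 188, 160 and 246 with the SOX9 sgRNA. In CPM they were 423, 423 and 325 against 226, 208 and 239. Control library 3 was the lowest of its group, and still above every SOX9 sgRNA library. The mean fell from 390.0 ± 56.6 to 225 ± 15.8 CPM (SD, n = 3 each), or -0.80 on the log2 scale (SE 0.12, edgeR adjusted p = 7.08e-07). Groups that do not overlap were found for 24.5% of all genes tested.

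The 2 rows of the IER3 locus differed in level and moved by like amounts. Per kilobase of exon, the control level was 62.5 ± 0.989 CPM for IER3 and 741 ± 107 CPM for IER3-AS1. In single libraries the row of IER3-AS1 was 9.69 to 17.2 times that of IER3 per kilobase. IER3 held 16.6%, 16.5% and 21.0% of the pair's counts in control libraries and 16.8%, 13.0% and 18.5% in SOX9 sgRNA libraries. The ranges overlapped. Means of 18.0% ± 2.55 and 16.1% ± 2.81 (SD, n = 3 each) gave an exact two-sided permutation p of 0.60, where 3 against 3 can reach no less than 0.10. Summed over both strands, the locus gave a log2 fold change of -0.82.

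**Figure D2:**
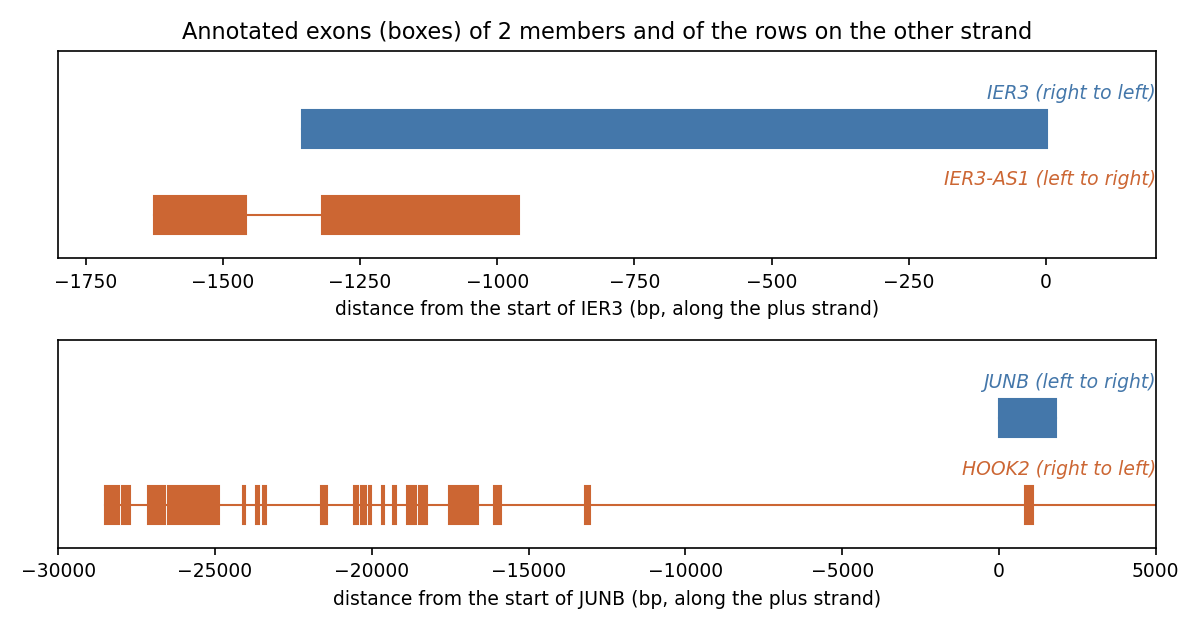
Boxes are annotated exons on GRCh37, placed by distance in bp from the start of IER3 (top) or JUNB (bottom), with the direction of transcription beside each name. The second block of IER3-AS1 lies inside the IER3 exon, and a single HOOK2 block of 259 bp lies inside JUNB, far from its other main exons. The HOOK2 line runs on past the right edge to 3 short blocks that are not drawn.

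JUNB encodes an AP-1 subunit that activates transcription less strongly than JUN. It has 1 exon (ENSG00000171223, chr19:12902310-12904124, plus strand), and its libraries held 16, 2 and 22 counts with the control sgRNA and 12, 22 and 26 with the SOX9 sgRNA. Control library 2 was far below the others, and the groups overlapped. On the log2 scale the change was 0.32 (SE 0.45, edgeR adjusted p = 0.76, 95% interval -0.58 to 1.22). Without control library 2 it was -0.21, and without control library 3 it was 0.94, so its direction rested on single libraries.

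The row opposite JUNB behaved differently from the IER3 locus. HOOK2 (ENSG00000095066, chr19:12873817-12983554, minus strand) encodes a protein that links cargo to microtubules. Its counts were 448, 450 and 437 with the control sgRNA and 688, 592 and 783 with the SOX9 sgRNA. The groups did not overlap, as was so in CPM for 24.5% of all genes tested. The mean rose from 599 ± 28.5 to 787 ± 36.4 CPM (SD, n = 3 each), or 0.39 on the log2 scale (SE 0.088, edgeR adjusted p = 0.000945). Of the 5950 exon bp of HOOK2 only 259 bp (4.4%) lie opposite JUNB, in the block from 12903138 to 12903396. The table gives 1 total for all 23 exon blocks, so how many counts fell over JUNB cannot be told from it. JUNB held 0.442% to 4.79% of the pair's counts, and its share gave means of 2.89% ± 2.23 in control and 2.84% ± 0.99 in SOX9 sgRNA libraries (SD, n = 3 each, exact permutation p = 1.0).

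JUN, the founding AP-1 subunit gene, and JUND, which encodes a more constantly expressed subunit, were also tested. JUN (ENSG00000177606, chr1:59246465-59249785, minus strand) had 17, 12 and 17 control counts and 13, 13 and 32 with the SOX9 sgRNA. SOX9 sgRNA library 3 was the highest and the other 5 lay together. On the log2 scale the change was 0.06 (SE 0.41, edgeR adjusted p = 0.96, 95% interval -0.75 to 0.87), and -0.35 without SOX9 sgRNA library 3. JUND (ENSG00000130522, chr19:18390563-18392432, minus strand) had 7, 5 and 10 counts against 13, 10 and 4, and SOX9 sgRNA library 3 was the lowest of all 6. On the log2 scale it was 0.09 (SE 0.66, edgeR adjusted p = 0.96, 95% interval -1.22 to 1.40). Of these 3 genes, only JUND had an interval that held a fall as large as that of IER3 (-0.93). The JUNB interval reached past that size on the upper side only, and that of JUN on neither side. Changes within these intervals could have gone undetected at these counts.

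**Figure D3:**
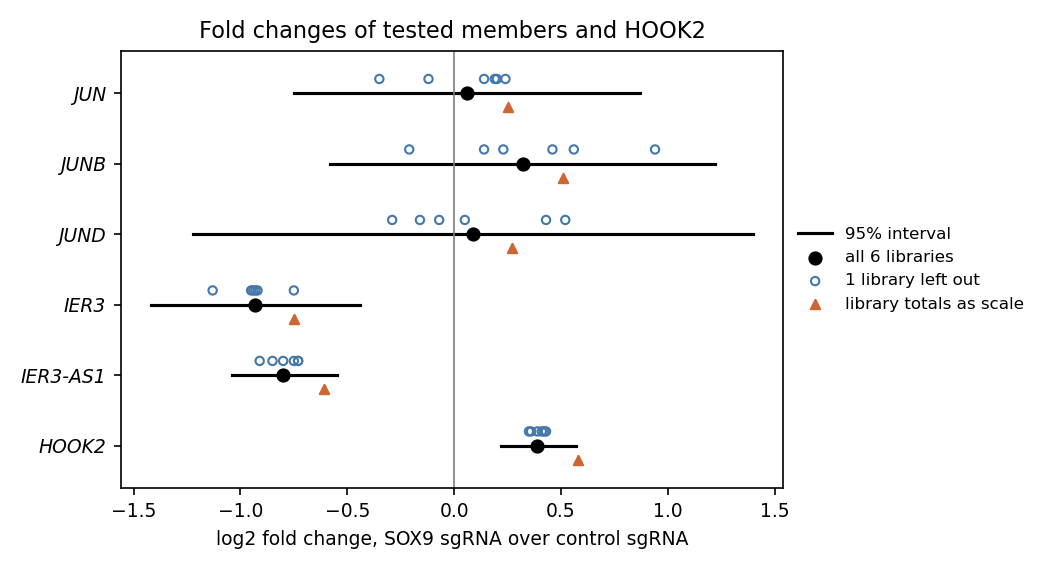
Black points and lines are log2 fold changes with their 95% intervals, open circles the values with 1 library left out, and triangles the values scaled by library totals. Every value of IER3 and IER3-AS1 is below 0 and every value of HOOK2 above 0, while JUN, JUNB and JUND fall on both sides.

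The FOS family genes did not pass the filter and are given by counts. FOS, whose product forms the classic pair with JUN, had 4, 13 and 6 control counts and 3, 5 and 7 with the SOX9 sgRNA. FOSL1 had 7, 10 and 9 against 9, 3 and 9. FOSL2 had 6, 6 and 10 against 25, 4 and 11, with SOX9 sgRNA library 1 standing above the other 5. In each of these genes the groups overlapped. In a fit with no filter on low counts, log2 fold changes were -0.86 (SE 0.74) for FOS, -0.58 (SE 0.65) for FOSL1 and 0.59 (SE 0.57) for FOSL2, each with an edgeR adjusted p of 0.71. Single libraries moved the log2 ratios of mean CPM. That of FOS went from -0.85 to -0.31 without control library 2, and that of FOSL1 from -0.57 to -0.25 when SOX9 sgRNA library 2 was left out and to -0.88 when library 1 of that group was. FOSL2 had 0.62, which became -0.33 when SOX9 sgRNA library 1 was left out and 1.03 when library 2 of that group was. It became 0.97 when control library 3 was left out. FOSL2-AS1 overlaps the span of FOSL2 (chr2:28615315-28640179, plus strand) and no exon of it, and had 0 to 6 counts per library.

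EGR1, a zinc finger factor with serum response elements in its promoter, had 3, 9 and 4 control counts against 8, 5 and 16. SOX9 sgRNA library 3 was the highest and the groups overlapped. The fit with no filter gave 0.55 (SE 0.68, edgeR adjusted p = 0.72). The log2 ratio of mean CPM was 0.58, and it was 0.19 without SOX9 sgRNA library 3, 0.30 without control library 1 and 1.12 without control library 2. ATF3, a bZIP factor induced by many stresses, had 3, 0 and 2 counts against 1, 3 and 2. Both groups were at or under a floor of 3 counts per library, so no fold is given for it.

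Per kilobase of exon, the control levels of the AP-1 subunits and EGR1 lay below those of the IER3 locus. IER3 and JUNB have an exon opposite and the others have none, and these classes differ in counts over all protein-coding genes (medians of 60 and 10). The part of this in the order was not tested. JUNB was at 10.2 ± 8.13 CPM, JUN at 6.26 ± 1.47, FOSL1 at 6.18 ± 1.06, JUND at 5.36 ± 2.17, FOS at 3.14 ± 1.77, EGR1 at 2.25 ± 1.24, FOSL2 at 1.40 ± 0.53 and ATF3 at 0.573 ± 0.516 (SD, n = 3 each). Neighbours from JUNB down to JUND lay within their spread, as did FOS and EGR1. Over all 6 libraries and 19250 protein-coding genes, these 8 genes ranked between the 44.3 percentile, for ATF3, and the 90.8 percentile, for JUNB, on this per-kilobase scale. IER3 ranked at 97.7.

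As a description of pattern over the 6 libraries, 2456 genes whose log2 CPM averaged 6 or more were compared with IER3-AS1 by Pearson's r of log2 CPM. The 4 most alike were IL17D (0.995), RPL36 (0.994), ENSG00000261604 (0.987) and MYG1-AS1 (0.986). For JUND they were GARIN5A (0.993), LINC02067 (0.989), RNF213-AS1 (0.969) and ENSG00000223343 (0.955). The libraries share scaling and, within a group, their source, so high values are easily reached among this many genes.

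Other genes of the pathway were read from 6 lists with 67 distinct genes tested. Of these, 1 was higher and 6 lower, or 10.4%, against 9.01% of all genes, and the median log2 fold change was 0.0. Among 22 other bZIP partners of AP-1, 10 were tested and none was called by edgeR's quasi-likelihood test, with 2 higher at an unadjusted p below 0.05 and 0 of 9 by DESeq2. Their median was 0.40. The largest of these values with small p were JDP2, a repressor of AP-1 (18.7 ± 2.52 to 38.6 ± 15.6 CPM, SD, n = 3 each, log2 fold change 1.03, edgeR adjusted p = 0.058), and NFE2L1 (1.10, edgeR adjusted p = 0.14). JDP2 passed the threshold with library totals (1.21) and without SOX9 sgRNA library 3 (1.20). Without SOX9 sgRNA library 1 it was 0.65 (edgeR adjusted p = 0.46), and DESeq2 gave an adjusted p of 0.11.

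Among 43 other immediate early genes, 16 were tested, 0 were higher and 1 was lower, with a median of 0.22. At an unadjusted p below 0.05, 4 were higher and 1 lower, and DESeq2 called 0 higher and 1 lower. The lower gene was MYC, the growth-promoting transcription factor gene, from 105 ± 5.96 to 49.6 ± 9.29 CPM (SD, n = 3 each, log2 fold change -1.08, SE 0.23, edgeR adjusted p = 0.000324). Of 18 MAPK phosphatases and feedback inhibitors only DUSP16 was tested (-0.42, edgeR adjusted p = 0.73). Of 35 kinases and factors upstream, 19 were tested and edgeR called none (1 higher and 1 lower at an unadjusted p below 0.05, and 0 by DESeq2), with a median of 0.08. RPS6KA5, which encodes a kinase that acts downstream of MAPKs in the nucleus, had -1.17 (edgeR adjusted p = 0.14).

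AP-1 target genes had 3 lower and 0 higher among 9 tested of 30, with a median of -0.49. Of all genes tested, 6.02% were lower and 2.99% higher. None was higher at an unadjusted p below 0.05 or by DESeq2. VIM, which encodes the filament protein vimentin, fell by 1.61 on the log2 scale (SE 0.17, edgeR adjusted p = 8.26e-12). CCND1, which encodes cyclin D1, fell by 1.03 (SE 0.29, edgeR adjusted p = 0.014), and CD44, a hyaluronan receptor gene, by 0.49 (SE 0.13, edgeR adjusted p = 0.00693). CCND1 lost its call without SOX9 sgRNA library 2 (-0.96). CD44 lost it without control library 3 (-0.40) and with library totals (-0.31). MMP1, CXCL8, AREG, EREG and SPP1, secreted products often used as AP-1 readouts, were at 0 counts in every library on the strand counted. No exon is annotated opposite CXCL8, AREG, EREG and SPP1, so their other strand has no count and absence is not shown.

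Immediate early genes also respond to handling and sorting, so heat and dissociation stress genes were read beside them. Their summed level was 2310 to 2520 CPM in control and 2220 to 2430 CPM in SOX9 sgRNA libraries, and 15 of 16 had counts in every library. Of 12 tested, 1 was higher and 2 lower, against 2.99% and 6.02% of all genes. With library totals 3 were higher and 1 lower. The stricter filter left 10 tested, with 0 higher and 1 lower, and HSPA1A was not among those 10. HSPA1A, a heat shock protein gene with a near-identical copy, went from 12.0 ± 7.31 to 38.1 ± 7.50 CPM (SD, n = 3 each, log2 fold change 1.65, edgeR adjusted p = 0.00225). HSPE1, a mitochondrial chaperonin gene, had -0.51 (edgeR adjusted p = 0.000176) and DNAJB1, a co-chaperone gene, -0.36 (edgeR adjusted p = 0.024). DNAJB1 lost its call without control library 1 (-0.34) or 3 (-0.29), without SOX9 sgRNA library 2 (-0.34) or 3 (-0.21), with library totals (-0.18), with the stricter filter (-0.31), with the replicate block (-0.37) and by DESeq2 (-0.37). The part of handling in the IER3 result was not tested.

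**Figure D4:**
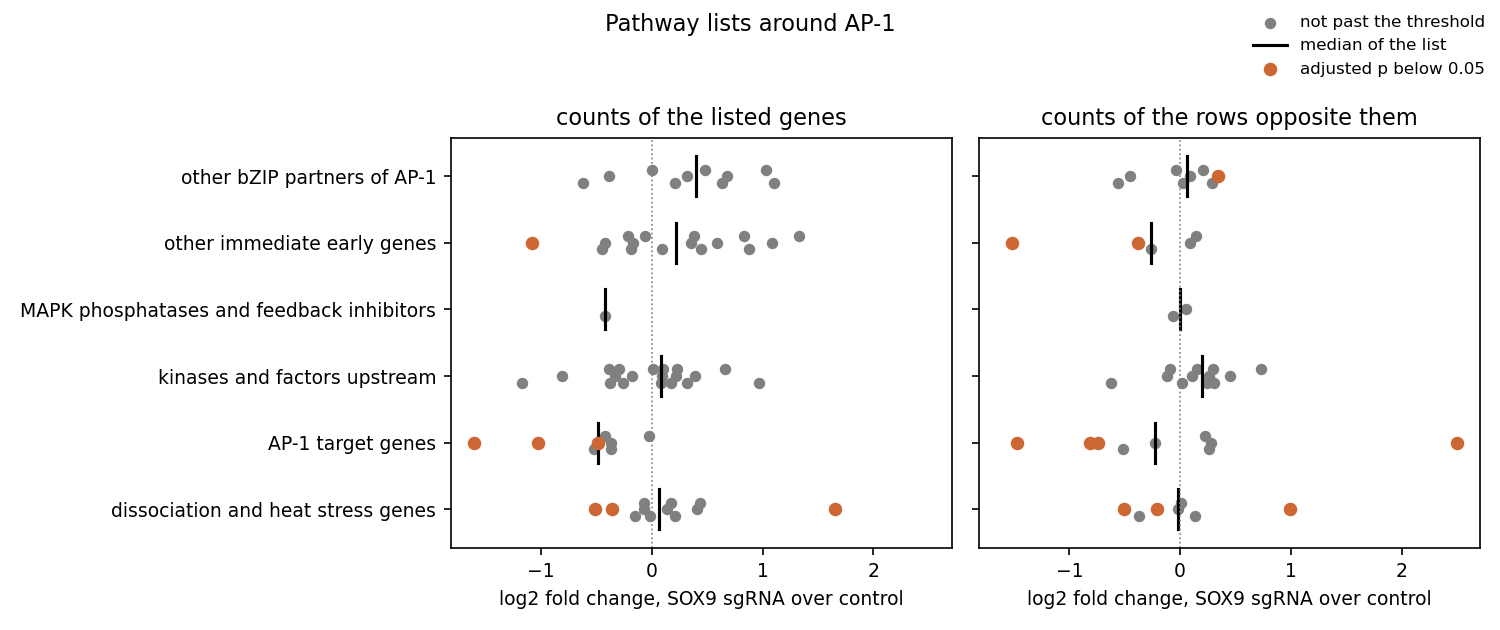
Each point is the log2 fold change of 1 tested gene (left) or of the row opposite a listed gene (right), by list. Orange points passed the threshold and bars are list medians, which run from -0.49 (AP-1 targets) to 0.40 (bZIP partners) on the left and from -0.26 to 0.20 on the right.

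Rows opposite the listed genes were read after the values had been seen, taking the row with the largest exon overlap. Of 43 such rows tested, 3 were higher and 7 lower, where all genes gave 2.99% and 6.02%. They were picked with values in view, so nothing is read from that count. Opposite IER2, an immediate early gene with 17.2 CPM of its own in controls, ENSG00000267598 overlapped over 946 bp and stood at 1690 ± 153 CPM in control and 1870 ± 167 CPM in SOX9 sgRNA libraries (SD, n = 3 each). Its log2 fold change was 0.14 (edgeR adjusted p = 0.25), and it passed the threshold with library totals (0.33) and without SOX9 sgRNA library 3 (0.22). Opposite CCN2, an early response gene for a matrix protein, ENSG00000227220 fell from 190.0 ± 29.5 to 66.0 ± 16.7 CPM (log2 fold change -1.52, edgeR adjusted p = 2.23e-09). CCN2's own counts gave -0.45 (edgeR adjusted p = 0.74). BTG1-DT, opposite the antiproliferative gene BTG1, had -0.38 (edgeR adjusted p = 0.00681), a call lost with library totals (-0.20), or when control library 1 (-0.33) or SOX9 sgRNA library 1 (-0.27) was left out. Opposite IL6, IL6-AS1 had 1, 3 and 1 control counts and 11, 11 and 13 with the SOX9 sgRNA (edgeR adjusted p = 0.047). That call rested on few counts and held in 1 of 6 fits that left out a library, the one without control library 2. The row opposite MAFG, ENSG00000264769, had 0.34 (edgeR adjusted p = 0.04), and its call held in 2 of the 6. Opposite the 3 AP-1 target genes that fell, VIM-AS1 (-1.47), LTO1 (-0.81) and CD44-AS1 (-0.74) were lower too, and HSPA1L, opposite HSPA1A, was higher by 0.99. Other pairs did not move together. Opposite UBB (0.17, edgeR adjusted p = 0.77), ENSG00000265401 had -0.21 (edgeR adjusted p = 0.00101), a call lost with library totals (-0.03). Opposite HSPD1 (-0.02, edgeR adjusted p = 0.98), HSPE1 had -0.51 (edgeR adjusted p = 0.000176).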

How the data were processed

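Total RNA of sorted MB157-Cas9 cells was made into libraries with a stranded SMARTer Pico kit, per the labels. The authors deposited raw counts of fragments per gene, 1 table per library, as whole numbers without normalization. The aligner was STAR 2.7.10a and the build GRCh37 (hg19), per the submitters' processing notes. Exons of Ensembl release 75 were counted by featureCounts (Subread 1.6.2) with strand setting 1, per the file headers, and a fragment could count for every gene it overlapped on that strand. Whether this setting matches the read orientation of the kit was not tested. HSPA1A reads can be split with its copy.

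Counts were analysed in R 4.3.3 with edgeR 4.0.16: filterByExpr at its defaults (minimum count 10), TMM scaling, and the robust quasi-likelihood test of SOX9 sgRNA against control over all 7959 tested genes, with Benjamini-Hochberg adjustment and a threshold of 0.05. CPM divides a count by its library size (the total over tested genes), scaled by TMM factors. Shares of a pair were tested by exact permutation (scipy 1.17.1). Alternatives were library totals, RLE factors, DESeq2 1.42.0, no filter, a stricter filter (minimum count 30), the replicate block, each library left out, and both strands summed. The procedure was tested on simulated data. Changes were simulated only in genes with more counts than JUND, FOS, FOSL1, EGR1 and ATF3, so it does not show what could be detected in these. Symbols were found for 38994 identifiers. Members, lists and tests were chosen with earlier results of these data known. From each list the text names up to 4 genes past the threshold with the smallest adjusted p or, where none passed, the 2 with the smallest p. Rows opposite list genes and the target genes at 0 were named after their values were seen. One gene that this rule names is not reported here.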

Additional observations from a re-analysis of the deposited data

How the results depend on the processing

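The falls of IER3-AS1 and the rise of HOOK2 kept direction and call in every alternative run, and IER3 in all but 1. With 1 library left out, log2 fold changes ran from -1.13 to -0.75 for IER3 (adjusted p = 0.078 without SOX9 sgRNA library 2, edgeR), from -0.91 to -0.73 for IER3-AS1 and from 0.35 to 0.43 for HOOK2, and the count of lower members ran from 1 to 2. Values that changed sign when a library was left out ran from -0.35 to 0.24 for JUN, -0.21 to 0.94 for JUNB, -0.29 to 0.52 for JUND and -0.33 to 1.03 for FOSL2, and the difference in JUNB's share of its pair from -1.28 to 0.892 percentage points. The cause was not tested. With both strands summed, JUNB together with HOOK2 passed the threshold (0.39, edgeR adjusted p = 0.00095), which JUNB alone did not. With library totals the median over all tested genes was 0.19 on the log2 scale, not 0.01, and 625 genes were higher and 249 lower, where TMM scaling gave 238 and 479. They gave 6 higher genes over the 6 pathway lists in place of 1. With no filter 151 genes were higher. Leaving out a library gave 1 to 2 higher pathway genes, and the rows opposite gave 3. Replicate numbers did not pair the libraries: deviations of same-numbered libraries correlated at -0.00347, 0.0196 and -0.0116, and not every library correlated best with its own number. The fit with the replicate block gave 175 genes higher and 399 lower, and -0.96 for IER3, -0.79 for IER3-AS1 and 0.39 for HOOK2. Precision is low for the AP-1 subunits, at 2 to 32 counts per library, and how much of this is depth and how much the strand counted was not tested.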
